A study of Homo sapiens with 6 samples.

Results

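The nuclear-encoded genes of the mitochondrial respiratory chain were followed through 6 messenger RNA libraries of RKO cells, an established line derived from a human colon carcinoma. They were taken as all gene symbols beginning with NDUFA, NDUFB, NDUFC, NDUFS, NDUFV, SDHA to SDHD, UQCR, COX4 to COX8 or ATP5, together with CYC1 and CYCS, and 6 pseudogene symbols were left out. This gave 107 of the 28278 symbols in the count tables, of which 90 encode subunits, 12 encode assembly factors, 3 are antisense or divergent transcripts and 2 are readthrough symbols. The subunits comprised 38 of complex I, 4 of complex II, 10 of complex III, 18 of complex IV, 19 of complex V and the mobile carrier cytochrome c.

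The study asked how the transcriptome depends on GSK3B, a serine/threonine kinase, and compared 3 libraries of GSK3B knockout cells with 3 libraries of GSK3B wild-type cells. All 6 libraries came from the same line, and the labels name no other allele, treatment or time. How GSK3B was disrupted is not stated, nor whether the knockout line is clonal. Separate cultures behind the libraries of a group are not mentioned either, so the p-values cover just the spread among these 6 samples and that spread may be technical.

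The respiratory chain passes electrons from NADH at complex I and from succinate at complex II through ubiquinone to complex III, then through cytochrome c to complex IV, where oxygen is reduced. Complexes I, III and IV pump protons across the inner mitochondrial membrane, and complex V, the ATP synthase, uses the returning protons to make ATP. Most subunits are encoded in the nucleus and imported, while a small core set is encoded in mitochondrial DNA, and normal colonocytes use the chain to oxidise butyrate taken up from the gut lumen.

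Total counts ran from 32379369 to 33558362 per library, so each library was read to nearly the same depth. Levels are given as CPM, read counts brought to a common library total and scaled between libraries by edgeR's TMM method. GSK3B itself had 46.0, 47.5 and 47.1 CPM in the knockout libraries, against 99.0, 97.6 and 91.4 CPM in the wild-type libraries. The groups did not overlap, with a log2 fold change of -1.04 ± 0.05 (SE) and an adjusted p of 1.88e-12 in edgeR's quasi-likelihood test with Benjamini-Hochberg adjustment, and the transcript was still detected in every knockout library. Of 8 colon epithelial markers 5 reached 1 CPM in every library and CDH1 was listed at 0, and the list summed to 139 to 144 CPM in knockout and 136 to 143 CPM in wild-type libraries. Within it EPCAM was at 1.07 ± 0.04 CPM in knockout and 3.43 ± 0.95 CPM in wild-type libraries (SD, n = 3 each). The fibroblast list summed to 0.870 to 1.14 CPM in knockout libraries, below the 2.19 to 5.83 CPM in wild-type libraries. Wild-type replicate 3, at the top of that range, held COL1A2, COL3A1 and DCN at 0.691, 0.540 and 0.751 CPM. In the other libraries these genes stayed at or under 0.0611 CPM. PDGFRB was at 0.560 to 0.792 CPM in knockout and 1.61 to 2.14 CPM in wild-type libraries. The part of the EPCAM or fibroblast difference in the results was not tested. The endothelial list stayed at or under 0.240 CPM in all libraries with CDH5 at 0, and the blood and immune list, at 754 to 759 CPM in knockout and 740 to 763 CPM in wild-type libraries, was almost wholly CD68, with PTPRC and CD3E at 0.

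Respiratory chain transcripts differed little between GSK3B knockout and wild-type cells. Of 82 subunit genes with enough counts to be tested, 8 were higher in knockout cells, 1 was lower and 73 did not pass an adjusted p of 0.05. The 8 higher genes were CYCS, UQCRB, COX6C, NDUFB9, NDUFB6, NDUFS5, ATP5F1C and ATP5F1E, and the lower gene was CYC1. The 9 changes were between 0.14 and 0.22 in size on the log2 scale. Across all 14409 genes tested, 917 were higher in knockout cells (6.36%) and 1034 were lower (7.18%), so 13.5% passed in either direction, beside 11.0% of the subunits. An unadjusted p under 0.05 was reached by 13 higher and 3 lower subunits, beside 28.0% of all genes. DESeq2 and limma-voom each also called 8 subunits higher and 1 lower. The number of higher subunits fell to 4 without knockout replicate 1, to 3 without knockout replicate 2, and to 5 without knockout replicate 3 or without wild-type replicate 2. CYC1 was not called in any of those 4 fits, and 2 subunits were lower without wild-type replicate 1 and without wild-type replicate 3. Calls over all genes moved as well, from 1951 to 1094, 950, 1205 and 1072 in those 4 fits, in the order given. They were 2531 without wild-type replicate 1 and 2046 without wild-type replicate 3.

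Taken over all 82 tested subunits, the median log2 fold change of knockout over wild type was 0.02, and the median size of the change was 0.06, beside 0.10 over all genes tested. The subunits and all genes were not matched for expression level, so the smaller size was not read as a trait of the subunits. Log2 fold changes ran from -0.28, for the scarcely expressed COX6B2, to 0.22, with 49 above 0 and 33 below. The libraries of both groups did not overlap for 17 subunits that were higher and 8 that were lower in knockout cells, or 30.5% of the subunits, beside 31.3% of all genes. Of the 73 subunits that did not pass, 70 had a 95% confidence interval for the fold change that lay within 1.25-fold in either direction, a bound chosen after seeing the data. The other three were COX6B2, NDUFA4L2 and NDUFS6. CPM are shares of a library, so a change in total messenger RNA per cell could not be seen here.

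**Figure D1:**
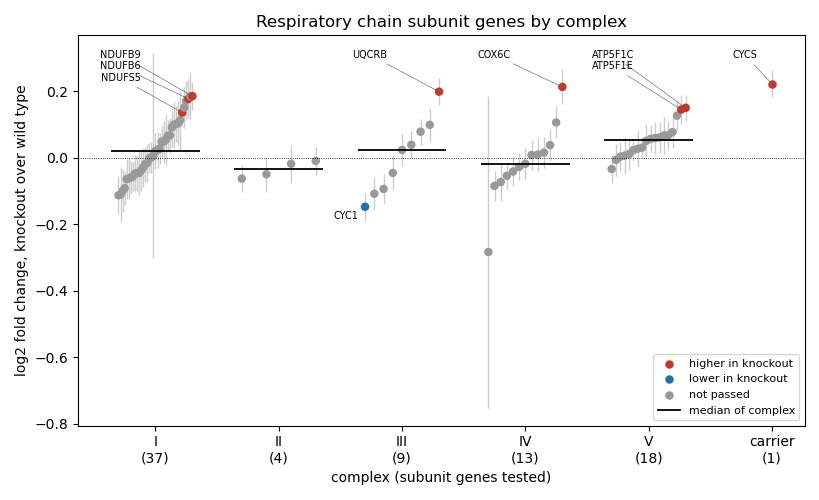
Log2 fold change of knockout over wild type for each of the 82 tested subunit genes, grouped by complex, with grey bars of 1 SE and black lines at each complex's median. Red points passed an adjusted p of 0.05 as higher in knockout cells, the blue point passed as lower, and the number tested is under each complex. Most points lie close to 0, and the wide bars belong to the scarce transcripts NDUFA4L2 and COX6B2.

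The largest rise was that of CYCS, which encodes the somatic cytochrome c that carries electrons from complex III to complex IV and that triggers caspase activation once it is released from mitochondria. CYCS (chr7:25120091-25125361, minus strand, hg38) had 179.8, 180.3 and 175 CPM in the knockout libraries, against 157, 156 and 146 CPM in the wild-type libraries. Every knockout library lay above every wild-type library, and the log2 fold change was 0.22 ± 0.04 (SE; adjusted p = 0.000693, edgeR), a call that passed in all 6 fits that left out a library.

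RefSeq promoter windows of GRCh38.p14, from 250 bases before to 50 bases after each gene's start, were matched for 69 of the 90 subunits. These starts are RefSeq's, and for CYCS and ATP5F1C they lie inside the gene coordinates given here, which are from GENCODE. The word GCATGCGC, the letters of a nuclear respiratory factor 1 (NRF1) site searched on both strands, stood in 15 of these 69 windows (21.7%), beside 742 of 15080 coding genes (4.92%). NRF1 is a transcription factor known for its sites in promoters of respiratory genes, cytochrome c among them. Of the 9 changed subunits 4 had a window, and 2 of those held the word, CYCS and ATP5F1C, the gamma subunit of the ATP synthase. Their windows are shown because these are the changed subunits that carry it, with the matched bases in capitals. In CYCS (chr7:25125211-25125510, minus strand) the word lies at -169 from the gene's start, and in ATP5F1C (chr10:7787927-7788226, plus strand) it occurs on both strands at -22 and -20, in 2 matches that overlap.
CYCS: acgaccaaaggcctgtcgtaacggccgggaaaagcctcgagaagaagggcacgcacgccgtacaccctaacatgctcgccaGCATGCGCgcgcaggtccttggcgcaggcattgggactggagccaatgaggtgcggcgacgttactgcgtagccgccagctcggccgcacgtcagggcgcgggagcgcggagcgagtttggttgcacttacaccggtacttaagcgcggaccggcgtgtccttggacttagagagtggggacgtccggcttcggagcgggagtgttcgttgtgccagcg
ATP5F1C: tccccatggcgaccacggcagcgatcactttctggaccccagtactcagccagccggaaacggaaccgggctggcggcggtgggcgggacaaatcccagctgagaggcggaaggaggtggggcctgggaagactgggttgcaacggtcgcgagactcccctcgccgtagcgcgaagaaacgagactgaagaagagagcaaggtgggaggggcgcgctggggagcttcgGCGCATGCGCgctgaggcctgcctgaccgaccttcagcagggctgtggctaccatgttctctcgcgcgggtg
The 15 tested subunits with the word had a median log2 fold change of -0.02, with 7 above 0, and the 50 tested subunits whose window lacked it had a median of 0.01, with 29 above 0. The ETS word CCGGAAG, searched in the same way, stood in 29% of subunit windows and 16.8% of all coding genes, and CCAAT in 37.7% and 42.6%. A match describes the letters in a window and was not read as binding. NRF1 itself had 20.3, 23.1 and 22.5 CPM in the knockout libraries, against 20.1, 20.6 and 20.1 CPM in the wild-type libraries, and with a log2 fold change of 0.12 it did not pass (adjusted p = 0.315, edgeR).

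Complex I, the NADH dehydrogenase, had 37 of its 38 subunit genes tested, and 3 of them rose, 0 fell and 34 did not pass. The calls made up 8.11%, beside 13.5% of all genes. All 3 that rose encode accessory subunits, which surround the catalytic core and make up 31 of the 37 tested. NDUFB9 (chr8:124539101-124580648, plus strand), an accessory subunit of the membrane arm, had 130.0, 130.2 and 136 CPM in the knockout libraries, against 114, 116 and 118 CPM in the wild-type libraries. The groups did not overlap, and the log2 fold change was 0.19 ± 0.04 (SE; edgeR adjusted p = 0.0046), passing in all 6 fits without a library. Its exons share positions with those of MTSS1 and TATDN1, so some reads could have been split between the genes.

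NDUFS5 (chr1:39026318-39034636, plus strand), an accessory subunit on the intermembrane face, had 145, 144 and 149 CPM in the knockout libraries, against 132, 131 and 135 CPM in the wild-type libraries, again with no overlap. It rose by 0.14 ± 0.04 on the log2 scale (SE; edgeR adjusted p = 0.0274), but did not pass when any of the 3 knockout replicates or wild-type replicate 2 was left out. NDUFB6 (chr9:32552999-32573184, minus strand), an accessory subunit of the membrane arm, had 46.6, 51.1 and 49.2 CPM in the knockout libraries, against 43.2, 45.4 and 41.3 CPM in the wild-type libraries, and its groups did not overlap either. Its log2 fold change of 0.18 ± 0.06 (SE; edgeR adjusted p = 0.0436) passed in 0 of the 6 fits that left out a library, and its exons share positions with SMIM27.

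The 6 tested core subunits of complex I, which hold the flavin and the iron-sulfur clusters or the quinone site, gave a median log2 fold change of -0.04, with 1 above 0 and 5 below, and 0 passed. NDUFV1, which binds NADH and flavin, had 122, 125 and 122 CPM in the knockout libraries, against 126, 125 and 133 CPM in the wild-type libraries. Its knockout libraries all lay below its wild-type libraries, with a log2 fold change of -0.06 that did not pass (edgeR adjusted p = 0.425). The 31 accessory subunits had a median of 0.05, with 20 above 0 and 11 below. Median GC content was 56.8% in the core and 48.2% in the accessory subunits. With an offset for transcript GC content the medians were 0.04 for core and 0.08 for accessory subunits. Core and accessory subunits were not compared by a test. NDUFA5, an accessory subunit of the matrix arm, just missed the threshold, with 62.8, 62.3 and 55.1 CPM in the knockout libraries, against 55.3, 54.1 and 50.6 CPM in the wild-type libraries, for a log2 fold change of 0.17 ± 0.06 (SE; edgeR adjusted p = 0.0504). Over all tested complex I subunits the median was 0.02, but it was -0.01 without knockout replicate 3.

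NDUFS1, the largest core subunit, was listed at 0 in every library, as were COX4I2, COX6A2, COX7B2 and COX8C. A 0 for so central a gene was not read as absence of expression, and NDUFS1 was left out of all counts of tested genes. By level per kilobase of transcript, using the median length of each gene's coding transcripts, NDUFS5 led complex I, at 267 ± 4.62 CPM per kb in knockout and 243 ± 3.86 CPM per kb in wild-type libraries (SD, n = 3 each). NDUFA4L2, a relative of NDUFA4 known to be induced in hypoxia, was scarce, with 1.10, 0.777 and 1.38 CPM in the knockout libraries, against 0.729, 1.31 and 1.20 CPM in the wild-type libraries. The groups overlapped for it, and its log2 fold change was 0.01 ± 0.31 (SE). NDUFA4L2 was counted with complex I by its symbol, among the accessory subunits, whereas NDUFA4 was counted with complex IV.

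**Figure D2:**
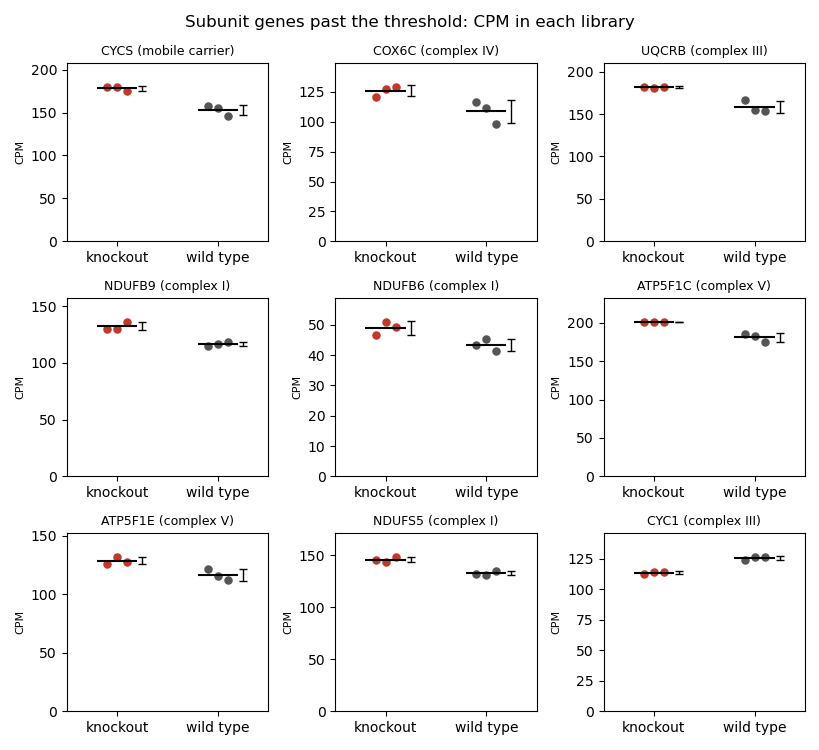
TMM-scaled CPM in each library, as points, for the 9 subunit genes past the threshold, with the group mean as a line and the SD of 3 libraries as a bar beside it; each vertical axis starts at 0. The knockout points lie above the wild-type points in 8 panels and below them for CYC1, and the difference is small beside the level.

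Complex II, succinate dehydrogenase, also belongs to the citric acid cycle, and all of its subunits are nuclear. None of its 4 subunits passed edgeR's test, 0 had an unadjusted p under 0.05, and DESeq2 and limma-voom both called 0. All 4 log2 fold changes lay below 0, with a median of -0.03, and leaving out a library moved that median between -0.07 and -0.00015. SDHC, a membrane anchor subunit, had the smallest p in the complex, with 146, 147 and 148 CPM in the knockout libraries, against 151, 154 and 155 CPM in the wild-type libraries. Its groups did not overlap, while its log2 fold change was -0.06 ± 0.04 (SE; edgeR adjusted p = 0.319). SDHC also had the highest level per kilobase of the complex, at 319 ± 1.87 CPM per kb in knockout and 333 ± 5.17 CPM per kb in wild-type libraries (SD, n = 3 each), over a median coding transcript of 460 bases. The longest SDHC transcript has 13566 bases, so that rank depends on the length taken, and SDHC shares exon positions with CFAP126. SDHA, the flavoprotein, had 113, 113 and 115 CPM in the knockout libraries, against 111, 117 and 116 CPM in the wild-type libraries, with overlapping groups and a log2 fold change of -0.01.

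In complex III, the cytochrome bc1 complex, 1 of 9 tested subunits rose, 1 fell and 7 did not pass. The calls made up 22.2% of these few genes, beside 13.5% of all genes. UQCRB (chr8:96225920-96235634, minus strand), a subunit that binds ubiquinone, had 182, 181 and 182 CPM in the knockout libraries, against 167, 155 and 154 CPM in the wild-type libraries. The knockout libraries lay close together and above all wild-type libraries, with a log2 fold change of 0.20 ± 0.04 (SE; edgeR adjusted p = 0.00197) that passed in all 6 fits without a library.

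CYC1 (chr8:144095027-144097525, plus strand), the cytochrome c1 that hands electrons to cytochrome c, was the only subunit of the 82 tested that fell. It had 112, 114 and 114 CPM in the knockout libraries, against 124, 127 and 127 CPM in the wild-type libraries. The groups did not overlap, and CYC1 fell by 0.15 on the log2 scale (SE 0.04; edgeR adjusted p = 0.0204), but it did not pass when any of the 3 knockout replicates or wild-type replicate 2 was left out. With an offset for transcript GC content its log2 fold change was -0.03 and its adjusted p 0.567.

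The large core proteins of complex III also gave negative values that did not pass. UQCRC2 had 67.8, 69.8 and 70.6 CPM in the knockout libraries, against 76.5, 76.9 and 71.1 CPM in the wild-type libraries, for a log2 fold change of -0.11 ± 0.05 (SE; edgeR adjusted p = 0.155). UQCRC1 had 155, 161 and 155 CPM in the knockout libraries, against 160.0, 165 and 178 CPM in the wild-type libraries, with overlapping groups and a log2 fold change of -0.09 ± 0.04 (SE; edgeR adjusted p = 0.162), which came to 4.49e-05 with the GC offset. The Rieske iron-sulfur protein UQCRFS1 stood at 0.04 and the hinge protein UQCRH at 0.08, neither of which passed. UQCRH had 186, 180.0 and 178 CPM in the knockout libraries, against 172, 171 and 173 CPM in the wild-type libraries, and at 300.1 ± 6.66 CPM per kb in knockout and 284 ± 1.70 CPM per kb in wild-type libraries (SD, n = 3 each) it led the complex per kilobase.

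Complex IV, cytochrome c oxidase, had 13 of its 18 nuclear subunits tested, of which 1 rose, 0 fell and 12 did not pass. That call was 7.69% of the tested subunits, beside 13.5% of all genes. COX6C (chr8:99873200-99894062, minus strand), a small transmembrane subunit, had 121, 128 and 129 CPM in the knockout libraries, against 116, 112 and 98.1 CPM in the wild-type libraries. Its lowest knockout library lay above its highest wild-type library, with a log2 fold change of 0.21 ± 0.05 (SE; edgeR adjusted p = 0.00862), and it did not pass without knockout replicate 2 or without knockout replicate 3. NDUFA4, counted here although its symbol names complex I, had 75.1, 80.5 and 79.0 CPM in the knockout libraries, against 73.4, 73.3 and 71.3 CPM in the wild-type libraries, for a log2 fold change of 0.11 ± 0.05 (SE; edgeR adjusted p = 0.148). The median of the 13 was -0.02, with 6 above 0 and 7 below.

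Several complex IV subunits come as a ubiquitous isoform and a tissue-specific one. COX4I1 had 194, 193 and 194 CPM in the knockout libraries, against 187, 199 and 206 CPM in the wild-type libraries, with overlapping groups, while COX4I2, the isoform of lung and hypoxic cells, was listed at 0. COX6A1 had 139.6, 141 and 142 CPM in the knockout libraries, against 142, 150.0 and 146 CPM in the wild-type libraries, beside 0 for the muscle isoform COX6A2. COX6B1 had 85.2, 79.9 and 87.7 CPM in the knockout libraries, against 83.6, 84.3 and 87.9 CPM in the wild-type libraries, whereas COX6B2, known from testis, had 0.365, 0.373 and 0.331 CPM in the knockout libraries, against 0.608, 0.153 and 0.540 CPM in the wild-type libraries. As for NDUFS1, a listed 0 was not read as absence. COX7A2 had 71.7, 74.4 and 75.8 CPM in the knockout libraries, against 72.2, 73.1 and 70.8 CPM in the wild-type libraries, and the muscle isoform COX7A1 reached at most 0.0601 CPM, in a knockout library. COX8A had 132, 135 and 137 CPM in the knockout libraries, against 132, 142 and 142 CPM in the wild-type libraries, and at 266 ± 5.15 CPM per kb in knockout and 273 ± 11.1 CPM per kb in wild-type libraries (SD, n = 3 each) it led the complex per kilobase. Of the 5 pairs, none of the expressed partners passed the edgeR test.

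Complex V had 18 of its 19 subunits tested, counting the inhibitor ATP5IF1, and 2 rose, 0 fell and 16 did not pass. The calls made up 11.1%, beside 13.5% of all genes. Both that rose belong to the central stalk of the F1 part, which turns inside the catalytic head. ATP5F1C (chr10:7788129-7807815, plus strand), the gamma subunit, had 202, 201 and 201 CPM in the knockout libraries, against 186, 184 and 175 CPM in the wild-type libraries. Its knockout libraries were nearly alike and all above the wild-type libraries, with a log2 fold change of 0.15 ± 0.04 (SE; edgeR adjusted p = 0.0114) that did not pass without knockout replicate 1 or without knockout replicate 2.

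ATP5F1E (chr20:59025467-59032382, minus strand), the epsilon subunit, had 126, 132 and 128 CPM in the knockout libraries, against 122, 116 and 112 CPM in the wild-type libraries, with no overlap. It rose by 0.15 ± 0.04 on the log2 scale (SE; edgeR adjusted p = 0.0311), did not pass when any of the 3 knockout replicates or wild-type replicate 2 was left out, and shares exon positions with TUBB1. ATP5F1D, the delta subunit of the same stalk, had 77.2, 83.3 and 75.2 CPM in the knockout libraries, against 72.1, 78.7 and 83.8 CPM in the wild-type libraries, with overlapping groups and a log2 fold change of 0.01. The 3 stalk genes were not compared with each other by a test.

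Of the 18 tested subunits of complex V, 16 had log2 fold changes above 0, with a median of 0.05 and a range from -0.03 to 0.15, beside 50.1% above 0 over all genes tested. The catalytic head subunits ATP5F1A and ATP5F1B, which took the most counts of all subunit genes, had log2 fold changes of 0.02 for ATP5F1A and 0.03 for ATP5F1B. ATP5F1B had 634, 639 and 649 CPM in the knockout libraries, against 613, 640.1 and 629 CPM in the wild-type libraries, with overlapping groups. The 4 peripheral stalk subunits, which hold the head still, had a median of 0.06 with all 4 above 0, the 3 genes of the proton-carrying c ring a median of 0.03 with 2 above 0, and the 5 tested small membrane subunits a median of 0.07 with all 5 above 0. None of these 12 passed. ATP5MF, a small membrane subunit, led complex V per kilobase at 394 ± 10.3 CPM per kb in knockout and 393 ± 17.3 CPM per kb in wild-type libraries (SD, n = 3 each), with 127, 124 and 131 CPM in the knockout libraries, against 121, 129 and 131 CPM in the wild-type libraries and a log2 fold change of 0.00. The median coding transcript of ATP5MF has 323 bases, and its exons share positions with PTCD1 and ATP5MF-PTCD1. ATP5IF1, which blocks the reverse reaction, stood at -0.01.

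**Figure D3:**
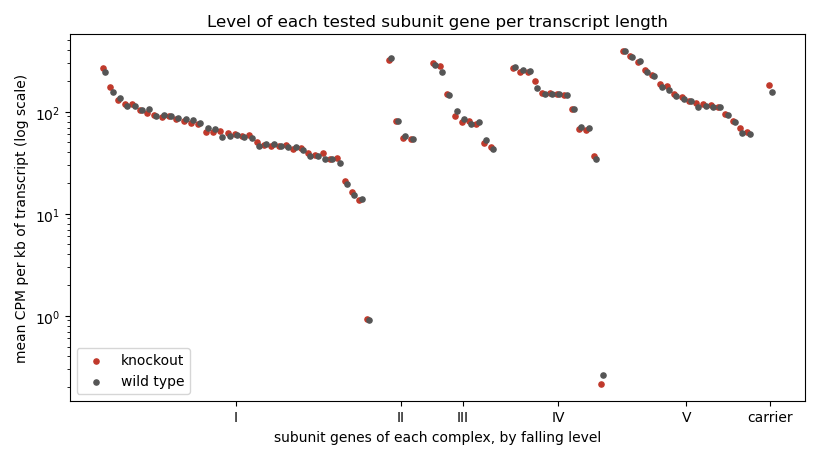
Mean level of each tested subunit gene in CPM per kilobase of transcript, on a log axis, in order of falling level within each complex, with knockout in red left of wild type in grey. Within a complex the levels spread far more widely than the paired points of any gene, which nearly coincide. The low points are NDUFA4L2, placed in complex I by its symbol, and COX6B2 in complex IV.

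Summed over a complex, the subunit transcripts differed by at most a few percent. Complex V summed to 2924, 2959 and 2961 CPM in the knockout libraries, against 2843, 2909.8 and 2825 CPM in the wild-type libraries, or 103% of wild type. Complex III summed to 1061, 1067 and 1062 CPM in the knockout libraries, against 1050.5, 1047 and 1055 CPM in the wild-type libraries, or 101%. With TMM scaling every knockout library lay above every wild-type library in both complexes, and with 3 against 3 an exact permutation test cannot give a p below 0.1. With library size scaling, an alternative chosen after seeing the data, the groups overlapped in both, at 102% of wild type in complex V and 99.9% in complex III.

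Complex I summed to 2113, 2133 and 2195 CPM in the knockout libraries, against 2087, 2097 and 2139 CPM in the wild-type libraries, or 102% of wild type, and complex IV to 1194, 1197 and 1218 CPM in the knockout libraries, against 1184, 1211 and 1196 CPM in the wild-type libraries, or 100.5%. Complex II summed to 393, 388 and 401 CPM in the knockout libraries, against 403, 413 and 397 CPM in the wild-type libraries, or 97.4%. The groups overlapped for these complexes, though with library size scaling every knockout library lay below every wild-type library in complex II, at 96.2%. All 90 subunits together took 0.785% of all counts on average, and summed to 7864, 7924 and 8012 CPM in the knockout libraries, against 7724, 7834 and 7758 CPM in the wild-type libraries, with every knockout library above every wild-type library at 102% of wild type, while with library size scaling the groups overlapped at 100.8%.

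**Figure D4:**
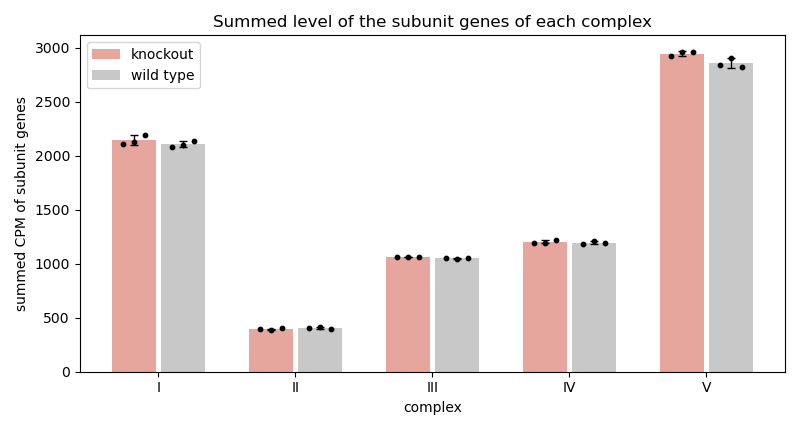
Summed TMM-scaled CPM of the subunit genes of each complex, with bars for the mean of 3 libraries, error bars for the SD and points for single libraries, knockout left of wild type. Complex V shows the widest gap, 2948 CPM in knockout and 2859 CPM in wild-type libraries on average, and the sums of complexes I, II and IV overlap.

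Transcript GC content moved with the fold changes. Over the 82 tested subunits, Pearson's r between GC content of the longest transcript and log2 fold change was -0.46 (Spearman's rho -0.42), and over 13814 genes with a GC value r was -0.23. These correlations run across genes measured in the same 6 libraries and are descriptions only. In the 41 subunits of lower GC content, up to 47.9%, 31 log2 fold changes lay above 0, with 7 higher and 0 lower calls and a median of 0.05. In the 41 of higher GC content, 18 lay above 0, with 1 higher and 1 lower call and a median of -0.02.

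An offset for GC content, a smooth curve fitted in each library, brought r to 0.09 over the subunits and the medians to 0.05 in both GC groups. It called 18 subunits higher and 0 lower, beside 13.7% of all genes higher and 7.39% lower, a split of 1979 against 1065 in place of 917 against 1034. By complex the higher calls were 8 in I, 0 in II, 3 in III, 1 in IV and 5 in V, together with CYCS. Of the 8 subunits that rose without the offset 7 passed with it, the exception being ATP5F1E (0.08, adjusted p = 0.0754). Among the subunits that passed with the offset alone were NDUFS6 (0.24, adjusted p = 0.00499), a zinc-binding accessory subunit, UQCRH (0.11, adjusted p = 0.0065) and ATP5F1B (0.07, adjusted p = 0.0299), all by edgeR. An offset for transcript length gave 12 higher and 0 lower, beside 10.4% and 6.0% of all genes (1500 against 865), while scaling by library size alone gave 5 higher and 1 lower, beside 649 against 1229 genes. NDUFS5, NDUFB6 and ATP5F1E did not pass with library size scaling, and CYC1 did not pass with the length offset (adjusted p = 0.0572, edgeR). Those scalings put the median of all genes at 0.02 with either offset and at -0.02 by library size, against 0.00. Which of them lies closer to the RNA of the cells was not tested.

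**Figure D5:**
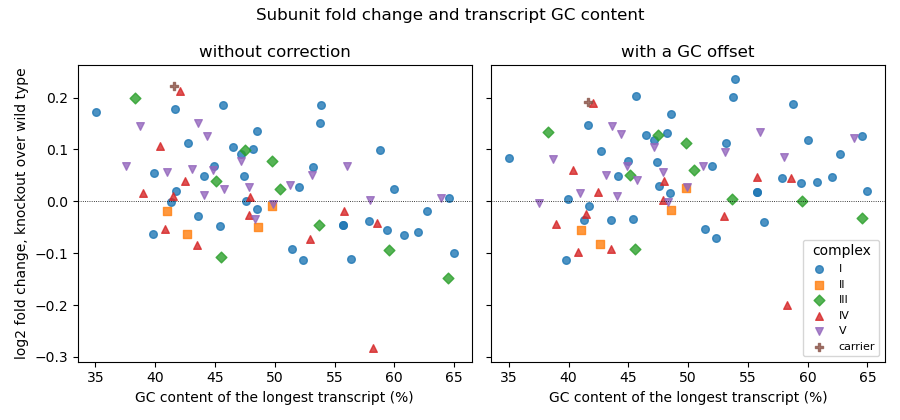
Log2 fold change of knockout over wild type against the GC content of the longest transcript for the 82 tested subunits, left as fitted and right with the GC offset; marker shapes stand for complexes. The points slope downwards at left (r = -0.46) and hardly at all at right (r = 0.09).

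Of 4 tested subunits on chromosome 8 all 4 changed, UQCRB, NDUFB9 and COX6C upwards and CYC1 downwards, which was noticed after the values were seen. Of 458 tested genes on that chromosome 8.08% were higher in knockout cells and 8.08% were lower. On chromosome 19, 9 of 11 subunits had log2 fold changes below 0 and 0 passed, and over the 1009 tested genes there the median was -0.04, with 2.97% higher and 6.94% lower.

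Assembly factors insert cofactors and join subunits without staying in the finished complex. Of 8 complex I assembly factors with an NDUFAF symbol 7 had log2 fold changes above 0, with a median of 0.12, and 1 passed (12.5%, beside 13.5% of all genes), in the other direction. That was NDUFAF3, which had 26.9, 27.1 and 27.98 CPM in the knockout libraries, against 32.3, 29.9 and 32.1 CPM in the wild-type libraries, and it fell by 0.20 on the log2 scale (SE 0.06; edgeR adjusted p = 0.0373). It passed in 0 of 6 fits without a library, shares exon positions with DALRD3, and with the GC offset stood at -0.09. That offset called 2 of the 8 higher and 0 lower, beside 13.7% and 7.39% of all genes. NDUFAF5, a modifier of NDUFS7, had 25.5, 28.97 and 31.1 CPM in the knockout libraries, against 24.3, 25.7 and 23.5 CPM in the wild-type libraries, for a log2 fold change of 0.22 ± 0.07 (SE; edgeR adjusted p = 0.051). The 4 SDHAF factors of complex II and the 5 antisense, divergent and readthrough symbols gave 0 calls each, with medians of -0.03 and 0.02. Among the latter NDUFB2-AS1, NDUFA6-DT, ATP5MF-PTCD1 and NDUFC2-KCTD14 share exon positions with the subunit gene in their symbol. Some of their reads could come from those genes, and the strand setting of the counts is not stated.

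A list of 40 further assembly factors, all tested, had 5 higher (12.5%, beside 6.36% of all genes), 0 lower and a median log2 fold change of 0.03. With the GC offset 5 were higher (12.5%, beside 13.7% of all genes), so the share no longer exceeded that of all genes. With that offset 1, TIMMDC1, was lower, beside 7.39% of all genes. Library size scaling gave 3 higher and 1 lower of the 40, beside 649 and 1229 of all 14409 genes tested. COA6, a copper chaperone factor of complex IV, had 47.6, 49.1 and 50.2 CPM in the knockout libraries, against 41.1, 38.8 and 37.6 CPM in the wild-type libraries. It showed the largest rise in that list, with a log2 fold change of 0.32 ± 0.06 (SE; edgeR adjusted p = 0.000484). COA7, also of complex IV, had 73.3, 71.6 and 66.0 CPM in the knockout libraries, against 59.8, 58.7 and 55.0 CPM in the wild-type libraries, and it rose by 0.28 ± 0.05 on the log2 scale (SE; edgeR adjusted p = 0.000994), and both passed in all 6 fits without a library. TMEM126B of complex I rose by 0.23, LYRM7, a chaperone of the Rieske protein, by 0.22, and TMEM70, which helps to assemble the c ring, by 0.18. TMEM126B passed in 1, LYRM7 in 2 and TMEM70 in 4 of the 6 fits, neither TMEM126B nor LYRM7 passed with library size scaling, and with the GC offset LYRM7 did not pass (adjusted p = 0.0654, edgeR).

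Of 14 regulators of respiratory and mitochondrial transcription or of mitochondrial messenger RNA 13 were tested, and 2 rose (15.4%, beside 6.36% of all genes), 0 fell and 11 did not pass, with 11 of 13 log2 fold changes above 0, beside 50.1% of all genes. TFB2M, which starts transcription of mitochondrial DNA, had 52.1, 52.3 and 55.2 CPM in the knockout libraries, against 47.5, 45.2 and 38.7 CPM in the wild-type libraries, and its log2 fold change was 0.28 ± 0.06 (SE; edgeR adjusted p = 0.00517). SLIRP, which stabilises mitochondrial messenger RNA, had 29.2, 32.5 and 31.6 CPM in the knockout libraries, against 27.1, 27.0 and 26.2 CPM in the wild-type libraries, and it rose by 0.22 ± 0.07 on the log2 scale (SE; edgeR adjusted p = 0.0294), passing in 3 of 6 fits without a library and not with the GC offset (adjusted p = 0.0565). The coactivator PPARGC1A was at or below 0.0901 CPM in every library and was not tested. The 13 subunits encoded in mitochondrial DNA were not analysed here.

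Of 6 respiratory genes linked to the hypoxia factor HIF 5 were tested, and 3 fell, beside 7.18% of all genes. PDK1, a kinase that restrains entry of pyruvate into the citric acid cycle, had 99.0, 95.6 and 92.4 CPM in the knockout libraries, against 144, 141 and 130.4 CPM in the wild-type libraries. Its log2 fold change was -0.53 ± 0.05 (SE; edgeR adjusted p = 2.47e-08), and it passed in all 6 fits without a library. PDK3, a related kinase, fell by 0.20, and LONP1, a mitochondrial protease, by 0.14 on the log2 scale (edgeR adjusted p = 0.0142 for PDK3 and 0.0277 for LONP1). PDK3 did not pass without knockout replicate 1 or without knockout replicate 3, and LONP1 did not pass when any of the 3 knockout replicates or wild-type replicate 2 was left out, nor with the length offset. With the GC offset LONP1 stood at -0.03 (adjusted p = 0.548) and PDK3 at -0.21 (adjusted p = 0.00103). HIGD1A and NDUFA4L2 did not pass, and COX4I2 was listed at 0.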

How the data were processed

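Polyadenylated RNA of RKO cells was sequenced as paired 150 bp reads in 6 libraries, per the labels' protocols. The authors deposited a table of raw read counts for each library, 1 whole number per gene symbol, with no normalization. The submitters' processing notes name hg38, TopHat, limma and edgeR without versions or roles. Which program, annotation and strand setting produced the counts was not stated in the labels. Groups and replicate numbers came from the sample titles. Pairs of libraries within a group differed by 3.16 to 9.71 chi-square per degree of freedom. Each library was counted as 1 replicate, though these values do not show separate cultures.

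The analysis used edgeR 4.0.16 under R 4.3.3: filterByExpr (minimum count 10, total 15), which left 14409 genes, TMM scaling, a robust quasi-likelihood fit with group as its only term, and Benjamini-Hochberg adjustment over all tested genes with a threshold of 0.05. CPM are TMM-scaled, and intervals are at 95%. Of the 28278 symbols 26215 matched GENCODE 29, which gave coordinates, transcript lengths and, for 95.9% of tested genes, GC content. Promoters are from RefSeq. Alternatives were other scalings and filters, the replicate number as a block, each library left out, DESeq2 1.42.0, limma-voom (limma 3.58.1), no robust estimation, and spline offsets (5 degrees of freedom) for GC content or transcript length. The fit was tested on simulated data.

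The members and the related lists were chosen with earlier results of these data known, so counts over them are descriptions and no list was tested. Genes named with values in every library are the subunits past the threshold and the assembly factor NDUFAF3. Also given so are, in each complex, the subunit with the smallest p and that with the highest level per kilobase, and the isoform pairs. Of the changed members of the related lists, COA6, COA7, TFB2M, SLIRP and PDK1 are given so. TMEM126B, LYRM7, TMEM70, PDK3 and LONP1 are given by fold change alone. NDUFV1, SDHA, UQCRC1, UQCRC2, NDUFA4, NDUFA5, NDUFAF5, ATP5F1B, ATP5F1D and NRF1 were added after their values were seen.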

Additional observations from a re-analysis of the deposited data

How the results depend on the processing

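The counts of changed subunits depended most on the handling of GC content and on single libraries. With the GC offset 3044 genes passed in place of 1951, and 3066 with the GC offset and the replicate block together, while 18 subunits were higher with either. CYC1 did not pass with the GC offset, with both together, or with the length offset. The GC offset alone and the length offset left 0 subunits lower, and the GC offset with the block gave 1 lower, COX6A1 of complex IV. Library size scaling left 5 subunits higher, and counting assembly factors and other symbols too gave 2 lower.

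Leaving out a library gave 950 to 2531 genes in all, 3 to 9 higher and 0 to 2 lower subunits, and a log2 fold change of -1.07 to -1.02 for GSK3B. Median log2 fold changes without a library ran from -0.011 to 0.037 in complex I, -0.068 to -0.00015 in II, 0.00051 to 0.032 in III, -0.027 to -0.0020 in IV, 0.034 to 0.055 in V and 0.0091 to 0.025 over all subunits. With library size scaling the medians were 0.0050 in III, -0.037 in IV, 0.035 in V and -0.00041 over all subunits, and without a filter on low counts -0.013 in III. With the GC offset they were 0.049 in I, 0.051 in III, 0.0023 in IV and 0.046 over all subunits, and with the block added they were 0.050 in I, 0.051 in III, 0.0033 in IV and 0.046 over all subunits. The cause of these shifts was not tested.

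Over 46 genes named with a fold change, 780 values under an alternative were computed. Of these 654 kept direction and side of the threshold, 68 no longer passed, 24 newly passed and 34 changed sign, the last in 12 genes of which 0 had passed. For the 13 of the 46 genes that are no respiratory chain symbols, the alternatives were chosen after seeing the data. CYCS, UQCRB, NDUFB9, COA6, COA7, TFB2M, PDK1 and EPCAM passed under all alternatives run. COX6B2 had no value in DESeq2 or with the filter of 1 CPM.

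Sign changes with the GC offset gave log2 fold changes of 4.49e-05 for UQCRC1, 0.036 for NDUFV1, 0.025 for SDHA, 0.0023 for COX4I1, 0.047 for COX6B1, 0.045 for COX8A, 0.028 for ATP5IF1 and -0.034 for HIGD1A. With the block added they were 0.036 for NDUFV1, 0.025 for SDHA, 0.0033 for COX4I1, 0.046 for COX6B1, 0.045 for COX8A, 0.029 for ATP5IF1 and -0.034 for HIGD1A. Library size scaling gave -0.011 for NDUFA4L2, -0.012 for ATP5F1D and -0.015 for ATP5MF, the length offset 0.031 for SDHA and -0.0091 for ATP5MF, and the filter of 1 CPM -0.0025 for ATP5MF. Without a library the values ran from -0.21 to 0.19 for NDUFA4L2, -0.035 to 0.0049 for SDHA, -0.068 to 0.0046 for COX4I1, -0.047 to 0.016 for COX6B1, -0.68 to 0.029 for COX6B2, -0.053 to 0.060 for ATP5F1D, -0.036 to 0.029 for ATP5MF and -0.028 to 0.011 for ATP5IF1.

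Same-numbered libraries deviated together with correlations of only 0.07, -0.0041 and 0.03, so the numbers were not taken to pair the samples. The replicate block gave 2193 genes, 9 higher and 1 lower subunits.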
